A study of Homo sapiens with 6 samples.

Results

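The granule enzymes of myeloid cells were examined in MOLM13, a human acute myeloid leukemia (AML) cell line, after exposure to ZW27941, a degrader of the RNA methyltransferase METTL3. The 10 genes were taken by symbol from the deposited read counts, which hold 56305 genes: MPO, ELANE, PRTN3, AZU1, CTSG, LYZ, RNASE2, RNASE3, SRGN and CFD. They were picked for function, but with earlier results of these data known. All 10 were found and passed the filter on low counts. RNA was sequenced from cells kept for 24 h with DMSO, the vehicle (3 libraries), or with 1 μM ZW27941 (3 libraries). Cells of both groups carry an internal tandem duplication of FLT3 (FLT3-ITD) and a t(9;11) translocation, and no other agent is named for either group. The line is a single leukemia culture, and the labels do not say whether the libraries of a group came from separate cultures, so p-values measure only the spread between these libraries.

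Granule proteins are made mainly at the promyelocyte stage and stored until the mature neutrophil, monocyte or eosinophil releases them. MPO is a heme peroxidase that makes hypochlorous acid from hydrogen peroxide and chloride. ELANE, PRTN3 and CTSG are neutrophil serine proteases, and AZU1 is a relative of these proteases that has lost its catalytic activity and acts as an antimicrobial and chemoattractant protein. LYZ cuts bacterial cell walls, RNASE2 and RNASE3 are the eosinophil ribonucleases, SRGN is the core protein of the proteoglycan that packs granule enzymes, and CFD is the serine protease that activates the alternative complement pathway.

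The libraries held between 143454176 and 178744976 counts on genes. The 10 granule genes had from 1745 to 232424 counts in a library, with RNASE3 the lowest. Levels are given as CPM, the counts of a gene per 1000000 counts on genes, normalized for library size by TMM, a method that scales libraries to each other by the bulk of their genes. As a check of the cell line, 9 myeloid leukemia markers summed to between 1423 and 1513 CPM. FLT3 and PTPRC, at 563 and 388 CPM in DMSO, held much of this sum. KIT, ANPEP and CD14 were at only 0.417, 0.587 and 1.54 CPM in DMSO. Of these 9 markers, 5 were higher and 1 lower on ZW27941 at an adjusted p under 0.05 by edgeR's quasi-likelihood test. Among all genes tested, 16.3% were higher and 13.8% lower. With upper quartile normalization, 3 markers were higher and 1 lower. CSF1R had a log2 fold change of 0.40 and CD14 of −0.39. Marker sums reached at most 0.332 CPM for T cells, 2.26 CPM for B cells, 0.0131 CPM for erythroid cells, 2.15 CPM for megakaryocytes and 8.81 CPM for fibroblasts and epithelia. The METTL3 transcript was at 122 ± 1.17 CPM in DMSO and 123 ± 4.96 CPM on ZW27941 (SD, n = 3 each) and was not called, and since the compound acts on the protein, this does not check the labels. Library ZW27941 replicate 3 had the largest share of reads aligned to several places, at 5.25% against 3.63% to 4.07% in the others.

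Of the 10 granule genes, 9 were up-regulated and 1, CFD, was down-regulated on ZW27941. Among all 20399 genes tested, 30.1% were called at an adjusted p under 0.05, 16.3% higher and 13.8% lower. In each of the 10 genes the libraries of the conditions did not overlap, as was the case for 41.6% of all genes, 21.7% with higher and 19.9% with lower ZW27941 libraries. With upper quartile normalization, all genes called split into 42.1% higher and 57.9% lower, against 54.2% and 45.8% with TMM. The median log2 fold change of the granule genes was 0.27, against −0.0019 for all genes tested. The changes ran from 0.58 for RNASE3 to −0.083 for CFD, and none of them reached a doubling. Without regard to sign, the median log2 fold change over all genes tested was 0.12, and MPO, SRGN and CFD changed by less. With upper quartile normalization 7 granule genes were higher and 1 was lower, without ZW27941 replicate 3 there were 8 higher and 1 lower, and dropping 1 library at a time gave 7 to 9 higher and 0 or 1 lower. In bulk RNA, a change in the share of granule-rich cells and a change in the RNA per cell cannot be told apart.

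**Figure D1:**
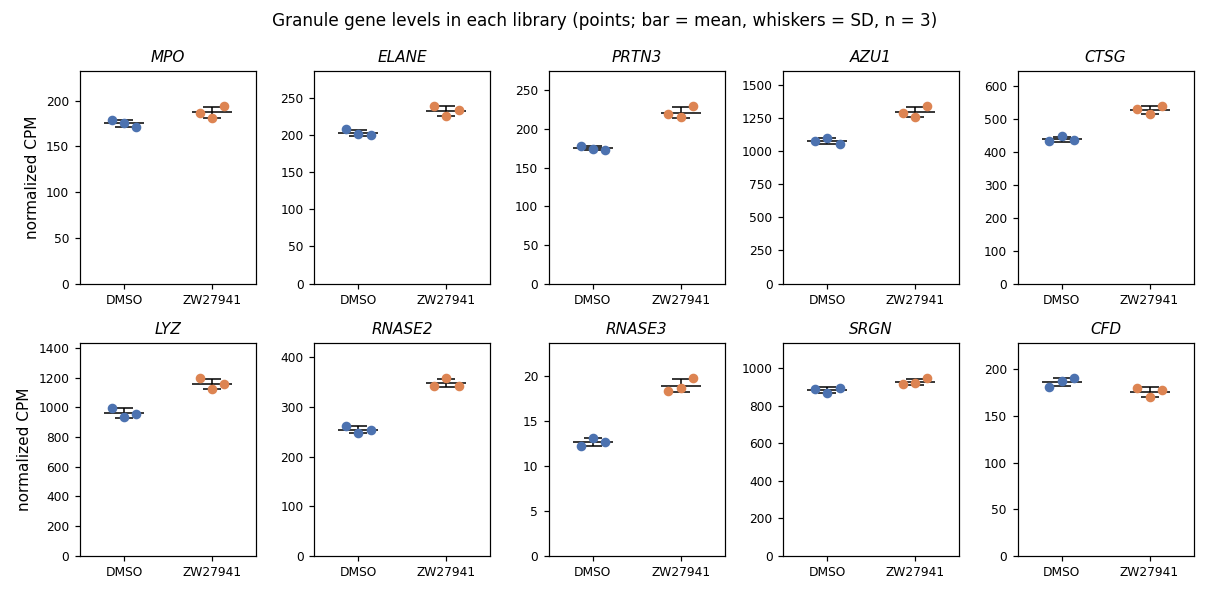
Normalized CPM of the 10 granule genes in each library (points, y axis from 0; bar, mean; whiskers, SD; n = 3 per condition). All 3 ZW27941 libraries lie above all 3 DMSO libraries for 9 genes and below them for CFD, with the widest gaps on a log2 scale, 0.39 and 0.48 between the closest libraries, for RNASE2 and RNASE3.

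The ribonucleases showed the largest increases. RNASE2, the eosinophil-derived neurotoxin, was at 262, 248 and 254 CPM in the DMSO libraries and at 343, 358 and 343 CPM in the ZW27941 libraries. The libraries of each condition lay close together, with a wide gap between conditions. The log2 fold change was 0.45 (standard error 0.027, edgeR quasi-likelihood adjusted p = 6.03e-11), a rise of 36.6%. RNASE3, the eosinophil cationic protein, was far less abundant, at 12.2, 13.1 and 12.7 CPM in DMSO and 18.3, 18.7 and 19.7 CPM on ZW27941. Every treated library again exceeded every control. Its log2 fold change was 0.58 (standard error 0.040, edgeR quasi-likelihood adjusted p = 9.08e-10), a rise of 49.3%, and its log2 fold change ranked 536 of all genes tested.

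RNASE2 (chr14:20955452-20956436) and RNASE3 (chr14:20891399-20892348) are paralogs on the plus strand of GRCh38, with 2 exons each, and lie within 65 kb. Their transcripts in GENCODE v29 share 94 windows of 30 bases, 12.9% of those of RNASE2 and 13.6% of those of RNASE3, and the longest identical run was 67 bases. The read length named in the paper is greater than this run, so only reads cut short could lie wholly inside it. Such reads could be assigned to either gene or to none. With the counts of both summed into 1 gene, the log2 fold change was 0.46 (edgeR quasi-likelihood adjusted p = 3.46e-11). The log2 ratio of RNASE3 to RNASE2 within a library was −4.43, −4.24 and −4.32 in DMSO and −4.22, −4.26 and −4.12 on ZW27941. These values overlapped between conditions, and their difference of 0.13 did not pass a two-sided exact permutation test (p = 0.2, adjusted p = 0.2 over 4 ratios, the smallest p possible being 0.1).

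The promoters of the pair, from 250 bases before to 50 bases after the RefSeq start site (GRCh38.p14), are shown because these paralogs had the largest rises of the group and share much of this sequence. The capitals mark matches to TTNNGNAA, letters that C/EBP factors can bind, on either strand.
RNASE2 (chr14:20955237-20955536, plus strand): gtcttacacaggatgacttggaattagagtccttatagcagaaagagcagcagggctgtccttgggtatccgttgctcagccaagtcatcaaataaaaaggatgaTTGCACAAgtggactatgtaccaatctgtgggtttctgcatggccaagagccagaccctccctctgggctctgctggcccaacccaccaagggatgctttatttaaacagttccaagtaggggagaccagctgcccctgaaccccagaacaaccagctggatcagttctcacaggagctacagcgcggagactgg
RNASE3 (chr14:20891135-20891434, plus strand): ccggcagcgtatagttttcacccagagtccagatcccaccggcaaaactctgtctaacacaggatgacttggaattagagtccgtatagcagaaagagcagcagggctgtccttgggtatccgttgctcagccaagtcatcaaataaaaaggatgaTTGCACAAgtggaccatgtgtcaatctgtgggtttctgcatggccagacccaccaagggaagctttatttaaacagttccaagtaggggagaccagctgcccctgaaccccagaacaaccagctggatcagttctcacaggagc
Both hold 1 match, with the same letters, and the longest run they share is 86 bases. Of the 12-base words of the RNASE3 promoter, 61.9% also stood in that of RNASE2.

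The neutrophil serine proteases PRTN3, ELANE and CTSG and their relative AZU1 were each higher on ZW27941, by 14.6% to 26.2%. PRTN3, proteinase 3, was at 178, 174 and 173 CPM in DMSO and at 219, 215 and 229 CPM on ZW27941. The lowest treated library stood well above the highest control. Its log2 fold change was 0.34 (standard error 0.026, edgeR quasi-likelihood adjusted p = 5.34e-09). ELANE, neutrophil elastase, was at 208, 202 and 199 CPM in DMSO and at 238, 225 and 233 CPM on ZW27941. The increase was smaller than that of PRTN3 but still left no overlap. For ELANE the log2 fold change was 0.20 (standard error 0.026, edgeR quasi-likelihood adjusted p = 6.95e-06).

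CTSG, cathepsin G, lies on the minus strand of chromosome 14 (chr14:24573522-24576260), apart from the other proteases. It was at 432, 447 and 435 CPM in the DMSO libraries and at 529, 514 and 538 CPM in the ZW27941 libraries. All treated libraries were higher than all controls, with a log2 fold change of 0.27 (standard error 0.026, edgeR quasi-likelihood adjusted p = 8.40e-08). AZU1, azurocidin, had the most counts of the group, at 1073, 1099 and 1050.4 CPM in DMSO and 1289, 1259.6 and 1337 CPM on ZW27941. These values gave a log2 fold change of 0.27 (standard error 0.027, edgeR quasi-likelihood adjusted p = 2.03e-07).

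AZU1 (chr19:825097-832018), PRTN3 (chr19:840960-848175), ELANE (chr19:851014-856247) and CFD (chr19:859643-863630) stand in this order on the plus strand of chromosome 19, within 38.5 kb (GRCh38, GENCODE v29). The first 3 rose and CFD, the last in line, fell. CFD was at 182, 188 and 190.1 CPM in DMSO and at 180.3, 170.1 and 178 CPM on ZW27941. The conditions were separated by a narrow margin, since the highest treated library was just under the lowest control. The log2 fold change of CFD was −0.083 (standard error 0.027, edgeR quasi-likelihood adjusted p = 0.0220), a decrease that lost its call without DMSO replicate 2 (adjusted p = 0.0822), DMSO replicate 3 (adjusted p = 0.121) or ZW27941 replicate 2 (adjusted p = 0.157). It stayed lower in all of these fits.

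Ratios within a library compare the changes of 2 genes directly. The log2 ratio of CFD to ELANE, a pair chosen after their values were seen and not tested, was −0.19, −0.10 and −0.066 in DMSO and −0.40, −0.40 and −0.39 on ZW27941. The log2 ratio of PRTN3 to AZU1 was −2.62 ± 0.035 in DMSO and −2.55 ± 0.0075 on ZW27941 (SD, n = 3 each, p = 0.1 by a two-sided exact permutation test, adjusted p = 0.2 over 4 ratios). For ELANE to AZU1 the log2 ratio was −2.41 ± 0.039 and −2.48 ± 0.042 (SD, n = 3 each, exact permutation p = 0.2, adjusted p = 0.2). That of CTSG to ELANE, genes on different chromosomes, was 1.11 ± 0.048 and 1.18 ± 0.027 (SD, n = 3 each, exact permutation p = 0.1, adjusted p = 0.2). The ratios of PRTN3 to AZU1 and of CTSG to ELANE did not overlap between conditions. With 3 libraries against 3, an exact permutation test cannot go below p = 0.1, so these tests leave equal and unequal change undecided.

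Genes within 100 kb of this cluster did not share 1 direction. Of 8 other protein-coding genes there in RefSeq, 7 were tested, of which 2 were higher, 3 lower and 2 not called. Among all genes tested, 16.3% were higher and 13.8% lower. PLPPR3, which lies next to AZU1 on its upstream side, rose by 0.19 on the log2 scale (standard error 0.026) and PALM by 0.16 (standard error 0.056). PTBP1, an RNA-binding regulator of splicing, had a log2 fold change of −0.078. On the far side of CFD, the Mediator subunit gene MED16 had a log2 fold change of −0.14 and R3HDM4 of −0.12.

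**Figure D2:**
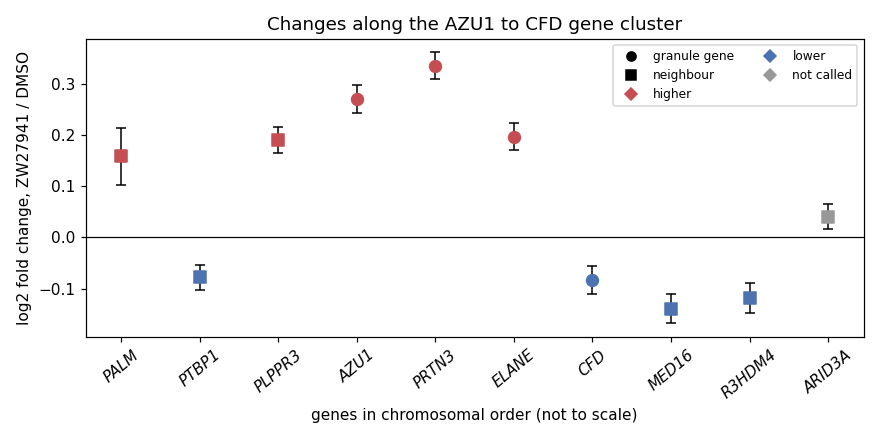
Log2 fold change (ZW27941 over DMSO; error bars, standard error) of the granule genes AZU1, PRTN3, ELANE and CFD (circles) and of tested neighbours with over 1 CPM in DMSO (squares), in chromosomal order and not to scale. Red genes were called higher, blue lower and grey not called. AZU1, PRTN3 and ELANE lie between 0.20 and 0.34, while CFD, MED16 and R3HDM4 lie between −0.14 and −0.083.

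Promoters of the cluster are shown for AZU1, PRTN3 and CFD, genes of 1 cluster of which AZU1 and PRTN3 rose and CFD fell. Positions are in GRCh38.p14; the RefSeq start of AZU1 lies downstream of the GENCODE gene start, and capitals again mark TTNNGNAA on either strand.
AZU1 (chr19:827587-827886, plus strand): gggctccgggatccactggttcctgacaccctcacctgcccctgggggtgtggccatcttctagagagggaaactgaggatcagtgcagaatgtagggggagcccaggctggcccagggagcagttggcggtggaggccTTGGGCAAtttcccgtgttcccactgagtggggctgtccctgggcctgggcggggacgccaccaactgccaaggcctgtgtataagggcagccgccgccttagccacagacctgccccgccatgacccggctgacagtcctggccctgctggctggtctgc
PRTN3 (chr19:840749-841048, plus strand): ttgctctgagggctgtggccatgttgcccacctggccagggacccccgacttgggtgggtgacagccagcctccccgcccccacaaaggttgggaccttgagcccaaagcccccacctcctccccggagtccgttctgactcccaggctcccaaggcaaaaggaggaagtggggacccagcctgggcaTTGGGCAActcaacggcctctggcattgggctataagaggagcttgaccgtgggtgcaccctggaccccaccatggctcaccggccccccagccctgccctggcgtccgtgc
CFD (chr19:859414-859713, plus strand): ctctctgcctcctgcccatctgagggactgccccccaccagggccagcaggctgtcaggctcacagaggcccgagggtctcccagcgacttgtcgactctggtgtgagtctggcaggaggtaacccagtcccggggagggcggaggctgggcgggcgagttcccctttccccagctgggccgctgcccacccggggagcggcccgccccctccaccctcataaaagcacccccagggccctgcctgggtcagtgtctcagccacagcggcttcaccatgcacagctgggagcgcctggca
In RefSeq's promoter table, 6 of the 10 genes were matched (RNASE2, RNASE3, CTSG, AZU1, PRTN3 and CFD), and MPO, ELANE, LYZ and SRGN were not. TTNNGNAA was found in 5 of the 6, all but CFD, and in 31.4% of 22199 promoters of the same length. GAGGAA, letters of a PU.1 site, was in 2 of the 6 (CTSG and PRTN3) and in 27.9% of all promoters. AACNG, letters of a MYB site, was in 5 of the 6, again all but CFD, and in 75.7% of all. TGTGGT, letters of a RUNX site, was in 0 of the 6 and in 11.3% of all, and TATAAA was in 0 of the 6 and in 9.47% of all, each searched on both strands. AACNG and TTNNGNAA can overlap each other or other motifs, and a match is not a bound site. The TTNNGNAA matches of RNASE2 and RNASE3 have the same letters in promoters that share much sequence, so they are not separate cases. Whether any of these letters relate to the changes was not tested.

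LYZ, on chromosome 12 (chr12:69348341-69354234, plus strand), was one of the most abundant of the group. The DMSO libraries held 998, 938 and 953 CPM of LYZ and the ZW27941 libraries 1196, 1126 and 1157 CPM. No treated library fell within the range of the controls. The log2 fold change of 0.27 (standard error 0.029, edgeR quasi-likelihood adjusted p = 3.74e-07) was close to those of AZU1 and CTSG, which differed from it by less than 1 standard error. GENCODE v29 places an antisense gene over the end of LYZ, and the strand setting of the counting is not given in the sources used here, so reads of the pair may have been mixed.

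MPO and SRGN changed little. MPO, the myeloperoxidase gene on the minus strand of chromosome 17 (chr17:58269856-58280935, 12 exons), was at 179, 175 and 171 CPM in DMSO and at 186, 181 and 194 CPM on ZW27941. The highest control was just under the lowest treated library. Its log2 fold change was 0.093 (standard error 0.027, edgeR quasi-likelihood adjusted p = 0.0122), and the call was lost with upper quartile normalization (adjusted p = 0.0574) and without DMSO replicate 3 (adjusted p = 0.0815). SRGN, serglycin, on chromosome 10 (chr10:69088106-69104811, plus strand), was at 886, 868 and 896 CPM in DMSO and at 915, 923 and 945 CPM on ZW27941. For SRGN too the conditions were apart by less than the range of either one. The log2 fold change was 0.071 (standard error 0.025, edgeR quasi-likelihood adjusted p = 0.0360), and the call was lost with RLE normalization (adjusted p = 0.0515), with upper quartile normalization (adjusted p = 0.174) and on dropping any library except ZW27941 replicate 1 (adjusted p from 0.0601 to 0.175).

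**Figure D3:**
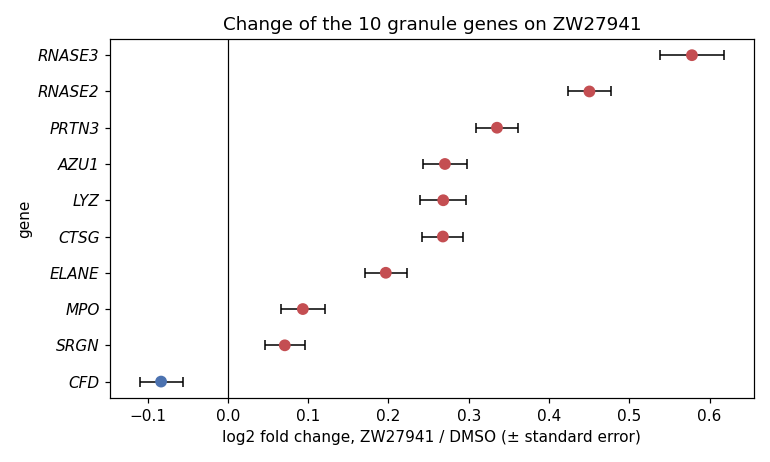
Log2 fold change of each granule gene on ZW27941 against DMSO (points; error bars, standard error), sorted by size. Red genes were called higher and the blue gene, CFD, lower. AZU1, LYZ and CTSG coincide near 0.27, RNASE3 and RNASE2 lie highest, and MPO, SRGN and CFD lie within 0.1 of 0.

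When ordered by their log2 fold changes, the genes fell from RNASE3 through RNASE2, PRTN3, AZU1, LYZ, CTSG, ELANE, MPO and SRGN to CFD. AZU1, LYZ and CTSG could not be put in order: the log2 fold changes of AZU1 and LYZ differed by 0.0021 and those of LYZ and CTSG by 0.00044. MPO and SRGN were also close, with log2 fold changes 0.022 apart against a joint standard error of 0.037. Steps of at least 2 joint standard errors lay between RNASE2 and PRTN3, ELANE and MPO, and SRGN and CFD, at 0.12, 0.10 and 0.15 on the log2 scale. The step of 0.13 from RNASE3 to RNASE2 was also of this size, but the ratio of these genes within a library overlapped between conditions.

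To compare levels between genes, CPM were divided by the length of the longest coding transcript in GENCODE v29. On this scale SRGN stood first in DMSO, at 731 ± 11.9 CPM per kb, followed by LYZ at 629 ± 20.4 and AZU1 at 627 ± 14.1 CPM per kb (SD, n = 3 each). The levels of LYZ and AZU1 did not differ beyond their spread. CTSG was at 494 ± 8.90, RNASE2 at 337 ± 9.69, ELANE at 197 ± 4.25, PRTN3 at 169 ± 2.59 and CFD at 155 ± 3.72 CPM per kb (SD, n = 3 each). MPO, the longest transcript of the group at 3215 bases, was at 54.6 ± 1.24 and RNASE3 at 17.6 ± 0.654 CPM per kb (SD, n = 3 each). On ZW27941, SRGN, LYZ and AZU1 were at 768 ± 12.6, 758 ± 22.7 and 756 ± 22.9 CPM per kb (SD, n = 3 each), so the lead that SRGN had in DMSO was within the spread. With the length of all exons combined, AZU1 came before LYZ and RNASE2 before CTSG.

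Together the 10 genes summed to 4409.9, 4350.3 and 4334 CPM in DMSO and to 5114, 4990.4 and 5174 CPM on ZW27941. Their share of all counts on genes was 0.435% ± 0.00509 in DMSO and 0.511% ± 0.00860 on ZW27941 (SD, n = 3 each). AZU1, LYZ and SRGN made up 66.9% of this sum in DMSO and 66.4% on ZW27941, so the sum mostly follows these 3 genes.

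METTL3 places the m6A mark on adenosines, often within the letters GGACT of a transcript. In the longest coding transcript of each granule gene, GGACT was found in 6 of 10, against 88.8% of 19669 coding genes and 73.9% of the 5542 coding genes whose transcript is 500 to 2000 bases long. SRGN had 4 matches in 1208 bases, or 3.31 per kb, at or above 98.9% of coding genes. PRTN3 and AZU1 had 2 each, MPO had 4, and ELANE and CTSG had 1 each. RNASE2, RNASE3, LYZ and CFD had 0 matches. These are letters in a sequence and not measured m6A, which was not analysed here.

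Genes that act on granule proteins were then examined in lists written by function, also with earlier results of these data known. Each count of called genes in these lists stands against 16.3% higher and 13.8% lower among all genes tested. Of the activator and inhibitors of the serine proteases, 6 of 9 were tested, with 3 higher and 1 lower. CTSC, the dipeptidyl peptidase that activates ELANE, PRTN3 and CTSG, rose from 158 ± 2.02 to 187 ± 1.91 CPM (SD, n = 3 each), a log2 fold change of 0.24 (edgeR quasi-likelihood adjusted p = 1.43e-07). SERPINB1, an inhibitor of the neutrophil proteases, had a log2 fold change of 0.19 and CST7, an inhibitor of cysteine cathepsins, of 0.12, both called higher. SLPI, the secreted inhibitor of elastase and cathepsin G, fell by 0.33 on the log2 scale, from 5.78 ± 0.193 to 4.61 ± 0.366 CPM (SD, n = 3 each).

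Of 8 other azurophil granule genes, 3 were tested and 1 was higher. BPI, which binds bacterial lipopolysaccharide, had a log2 fold change of 0.18 (edgeR quasi-likelihood adjusted p = 1.455e-04). PRSS57, another neutrophil serine protease on chromosome 19, was at 225 ± 7.32 CPM in DMSO and 227 ± 11.8 CPM on ZW27941 (SD, n = 3 each) and was not called, nor was CD63. The defensin genes DEFA1, DEFA1B, DEFA3 and DEFA4 had 0 counts in every library. For DEFA4 this allows up to 0.0209 CPM in the shallowest, while DEFA1, DEFA1B and DEFA3 are near-identical copies whose reads can align to several places, so 0 counts set no limit on their level.

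Of 19 genes for specific and gelatinase granules, proteins that form later in maturation, 10 were tested, with 5 higher and 1 lower. FCN1, a lectin of monocytes and granulocytes, rose from 0.930 ± 0.103 to 1.97 ± 0.205 CPM (SD, n = 3 each), a log2 fold change of 1.08. The gelatinase MMP9 had a log2 fold change of 0.32 and the membrane protease MMP25 of 0.22. OLR1, a scavenger receptor, was called lower at −0.69 from 0.439 ± 0.0210 CPM (SD, n = 3). CHI3L1, a chitinase-like protein of specific granules and the most abundant of this list, was at 659 ± 2.43 CPM in DMSO and 677 ± 4.85 CPM on ZW27941 (SD, n = 3 each) and was not called. LTF, LCN2, MMP8, CRISP3 and PGLYRP1, which define mature specific granules, were too low to be tested, and OLFM4 had 0 counts in all libraries.

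In the wider RNase A family, RNASE6, another ribonuclease of monocytes, rose from 25.2 ± 0.205 to 30.04 ± 0.675 CPM (SD, n = 3 each), a log2 fold change of 0.26 (edgeR quasi-likelihood adjusted p = 1.79e-06). RNH1, the cytosolic ribonuclease inhibitor, fell by 0.093 on the log2 scale. RNASE1 was called higher at only 0.0381 ± 0.0106 CPM in DMSO and 0.0902 ± 0.0152 CPM on ZW27941 (SD, n = 3 each), and ANG was not called. The call of RNASE1, on 4 to 19 counts, was lost with a replicate block (adjusted p = 0.0562 by edgeR), with no filter on low counts (adjusted p = 0.0974 by edgeR) and on dropping any of the 6 libraries (adjusted p from 0.0512 to 0.171 by edgeR), and DESeq2 gave it no adjusted p. Of 7 genes in this list, 4 were tested.

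SRGN carries glycosaminoglycan chains, and MPO carries heme. Of 19 genes for chondroitin and heparin chain synthesis, 18 were tested, with 6 higher and 5 lower, or 6 and 3 when only library size was used for scaling. CHST11, a chondroitin sulfotransferase, had a log2 fold change of 0.25, NDST1 of 0.22 and CSGALNACT2 of 0.22. CHST12 had a log2 fold change of −0.15, XYLT2 of −0.13 and B3GALT6 of −0.11. Of the 8 heme synthesis genes, 4 were lower and 0 higher, against 13.8% lower and 16.3% higher among all genes tested. ALAS1, the rate-limiting enzyme of the pathway, fell from 138 ± 2.92 to 116 ± 1.79 CPM (SD, n = 3 each), a log2 fold change of −0.25 (edgeR quasi-likelihood adjusted p = 1.91e-07), and PPOX had a log2 fold change of −0.17, FECH of −0.095 and UROS of −0.085. Without adjustment of p the same threshold gave 4 lower and 0 higher, and DESeq2 also called 4 lower and 0 higher. The number called lower was 2 with no filter on low counts, without DMSO replicate 2 and without ZW27941 replicate 1.

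Of 31 genes for granule sorting and exocytosis, all tested, 7 were higher (22.6%, against 16.3% of all genes) and 6 lower (19.4%, against 13.8%). The balance turned to 4 higher and 9 lower with upper quartile normalization, 3 were lower without DMSO replicate 3, and 4 were higher without ZW27941 replicate 2. SYTL1, an effector of the secretory GTPase RAB27A, had the largest change, a log2 fold change of −0.34 (edgeR quasi-likelihood adjusted p = 7.87e-08), and AP3S1 and VIPAS39 had log2 fold changes of −0.14 and −0.11. GNPTAB, SORT1 and GGA2, which route enzymes to lysosomes, had log2 fold changes of 0.16, 0.15 and 0.12.

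For the alternative complement pathway that CFD activates, 7 of 10 genes were tested, with 3 higher and 2 lower. CFP, properdin, which stabilizes the convertase, had a log2 fold change of 0.33, the receptor CR1 of 0.66 and the inhibitor CD59 of 0.28. CD55 and CD46, which protect cells from complement, had log2 fold changes of −0.20 and −0.11. CFB, the substrate of CFD, was too low to be tested, at 0.0138 ± 0.0185 CPM in DMSO (SD, n = 3).

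Of 12 transcription factor genes known to act on granule promoters, 3 were higher and 0 lower at an adjusted p under 0.05 by edgeR's quasi-likelihood test, against 6 and 2 when p was not adjusted and 3 and 2 by DESeq2. RLE normalization gave 3 higher and 2 lower, upper quartile 2 and 2, and library size alone 5 and 0. ETS1 had a log2 fold change of 0.34, SPI1 (PU.1) of 0.11 and CEBPA of 0.080. CEBPE, the C/EBP factor of late granules, was at 1.602 ± 0.0852 CPM in DMSO and 1.68 ± 0.125 CPM on ZW27941 (SD, n = 3 each) and was not called.

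**Figure D4:**
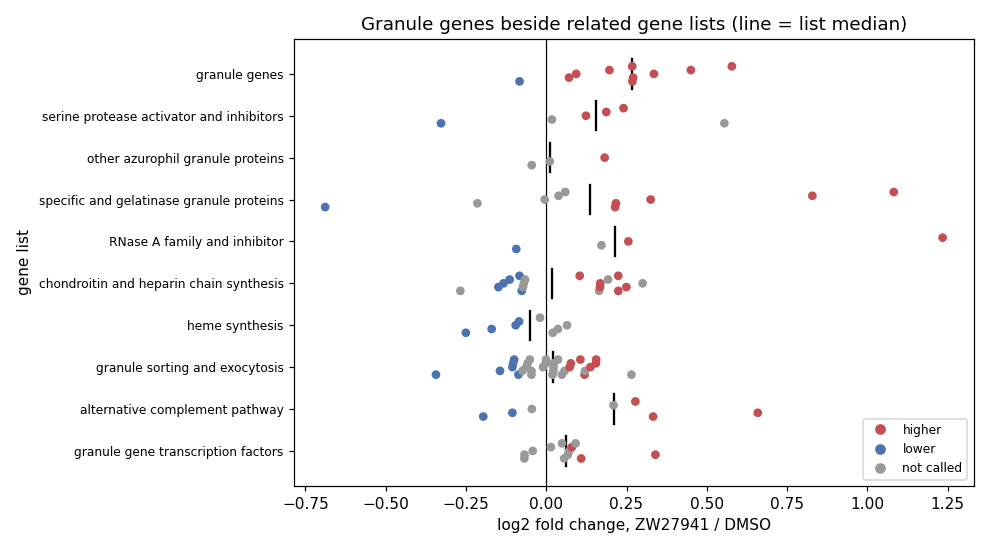
Log2 fold change (ZW27941 over DMSO) of the 10 granule genes and of the tested genes in 9 related lists; each point is a gene and each black line the median of a list. Red genes were called higher, blue lower and grey not called. The granule genes have a median of 0.27, while the medians of the other lists run from −0.052 for heme synthesis to 0.21.

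The granules of other blood cells were hardly represented. Eosinophil markers other than the ribonucleases (EPX, PRG2, PRG3 and CLC) summed to 0.361 to 0.582 CPM over all 6 libraries, and CLC had 0 counts. Mast cell markers summed to 1.08 to 1.43 CPM, and CPA3 had 0 counts. Cytotoxic granule markers summed to 59.7 to 64.4 CPM, of which NKG7 held 59.4 ± 0.690 CPM in DMSO (SD, n = 3), and GZMA and GZMK had 0 counts. In each of these 3 lists, 0 genes were called in either direction by edgeR's quasi-likelihood test, 0 had an unadjusted p under 0.05 and DESeq2 called 0. Only 2 of 4 eosinophil, 2 of 6 mast cell and 5 of 8 cytotoxic genes were tested. NKG7 aside, these were at no more than 1.12 CPM in DMSO, with standard errors of 0.11 to 0.43 on the log2 scale. A log2 fold change of 0.27, the median of the granule genes, could therefore be missed.

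Around the other granule loci, looked at after values were seen, 4 of 17 tested neighbours within 100 kb were called, or 23.5%, against 30.1% of all genes. The 2 tested neighbours of CTSG and the 3 of SRGN were not called, while CPSF6 near LYZ (log2 fold change 0.12), SUPT4H1 near MPO (log2 fold change 0.21) and NDRG2 near the ribonuclease pair (log2 fold change 0.19) were higher. RNASE1, near the same pair, was the other gene called, with the unstable call given above. EPX and LPO, the peroxidase genes beside MPO, were not called.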

How the data were processed

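RNA of 3 DMSO and 3 ZW27941 libraries of MOLM13 was measured by RNA-seq. The authors deposited 1 table per library of raw read counts per gene symbol, with no normalization. The submitters' processing notes name HISAT2, SAMtools 1.19.2, HTSeq 2.0.3 and hg38. The annotation and the strand setting are not given in the sources used here. The 5 closing tallies were left out of library sizes; reads not assigned to a gene made up 37.4% to 39.8%. Genes were filtered with filterByExpr, normalized by TMM and tested in edgeR 4.0.16 (R 4.3.3) with the quasi-likelihood test over 20399 genes, with Benjamini-Hochberg adjustment and a threshold of 0.05. Groups came from the sample labels. DESeq2 1.42.0, other normalizations and filters, a replicate block, a threshold of 0.01 and leaving out each library were tried as alternatives. On simulated data, the fit recovered 83 of 100 genes changed by 0.25 on the log2 scale and 98 of 100 changed by 0.5. It made 13 false calls over 20101 genes. Positions and lengths came from GENCODE v29, promoters and neighbours from RefSeq. The 10 genes, the lists and the tests were chosen with earlier results of these data known. Named from each list were up to 3 higher and 3 lower called genes with the lowest p, and all genes of lists with at most 4 tested; others were named after their values were seen. The upper limit given for 0 counts covers counting error only. Standard errors came from the quasi-likelihood fit and SDs from the libraries of a group, so both include the spread between libraries.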

Additional observations from a re-analysis of the deposited data

How the results depend on the processing

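Over 141 alternative values of the 10 granule genes, 126 kept direction and call, 15 kept direction but lost the call and 0 reversed. The 15 belong to SRGN, MPO and CFD. RNASE3, RNASE2, PRTN3, AZU1, LYZ, CTSG and ELANE stayed called in each alternative run. Without DMSO replicate 2, DMSO replicate 3 or ZW27941 replicate 2, 0 granule genes were called lower, a range of 0 to 1 on dropping 1 library at a time. At an adjusted p under 0.01, 7 granule genes were called higher and 0 lower, 1725 of all genes were called lower against 2816, and the related lists had 11 genes called lower against 20. The METTL3 log2 fold change was −0.010 with upper quartile normalization and ran from −0.023 to 0.035 without 1 library. The cause was not tested. The summed level of the granule genes kept a ratio of 1.15 to 1.18. Deviations of same-numbered libraries from their group means had correlations of −0.025, −0.040 and 0.080 over 12238 genes. Those of differently numbered libraries ran from −0.13 to 0.15. These values show no pairing by number, but 3 libraries a group are too few to exclude it. With a replicate block, 9 granule genes were higher and 1 lower, and 3243 and 2767 of all genes. With 3 libraries a group, exact tests of ratios could not reach 0.05.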
